A study of Mus musculus with 4 samples.

Results

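Mono_Nr4a1 is the name that the authors' deposited annotation gave to a small group of monocytes among the CD45-positive cells of mouse mammary tumours. Its cells were taken by that name, wherever the barcode also had a column of UMI counts, that is, of unique transcript molecules counted for each gene. This gave 257 of 16383 cells with counts, of which 231 carried barcode suffix 1 and 26 carried barcode suffix 2. The gene that gives the name, Nr4a1, was not analysed here, because the counts used covered 4099 genes of chromosomes 1 to 4 and part of chromosome 5.

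Monocytes are blood leukocytes that enter tissues and can give rise to macrophages and some dendritic cells. In the mouse, classical monocytes carry much Ly6C and leave the marrow through Ccr2, and they are the main precursors of tumour macrophages. Non-classical monocytes carry little Ly6C, patrol the vessel wall and depend on the nuclear receptor Nr4a1 for their survival.

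The study set Mif-depleted tumours against wild-type tumours, with 2 samples per group and 3 tumours combined in each sample. All tumours came from 4T1, a mouse mammary carcinoma line, implanted in BALB/c mice, and the genotype is that of the tumour line. The way in which Mif (macrophage migration inhibitory factor) was depleted, the sex and age of the mice and their own genotype are not stated in these sources, and Mif itself was not analysed. No label or header says which sample a barcode suffix belongs to, so each of the 4 suffixes is described as a sample of unknown group, and no value below compares Mif-depleted with wild-type tumours.

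Mono_Nr4a1 cells were found in every suffix, at 1 to 2 cells in 100. They made up 231 of 13162 annotated cells in suffix 1, or 1.76% (exact Clopper-Pearson 95% interval 1.54 to 1.99). In suffix 2 they made up 127 of 11961 cells, or 1.06% (0.886 to 1.26), in suffix 3 they made up 121 of 9317, or 1.30% (1.08 to 1.55), and in suffix 4 they made up 159 of 11341, or 1.40% (1.19 to 1.64). Intervals throughout cover counting error only, and each suffix is 1 sample, so the differences between suffixes carry no test.

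The balance between the monocyte names differed more between suffixes than the share of all cells did. Among cells with 1 of the 3 monocyte names (Mono_Nr4a1, Mono_Ly6c2 and Mono_Itgal), Mono_Nr4a1 held 36.1% in suffix 1, with an interval of 32.4 to 40.0. It held 18.5% in suffix 2 (15.7 to 21.7), 12.1% in suffix 3 (10.1 to 14.2) and 18.8% in suffix 4 (16.3 to 21.6). Suffix 1 stood above the other 3 suffixes and suffix 3 had the lowest value. Mono_Ly6c2 ran the other way, with 2.80% of all cells in suffix 1 and 9.38% in suffix 3. Neutrophils were 5712 of the 13162 cells of suffix 1, and with neutrophils left out of the denominator the shares of Mono_Nr4a1 were 3.10%, 1.46%, 1.75% and 1.58% in suffixes 1 to 4.

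**Figure D1:**
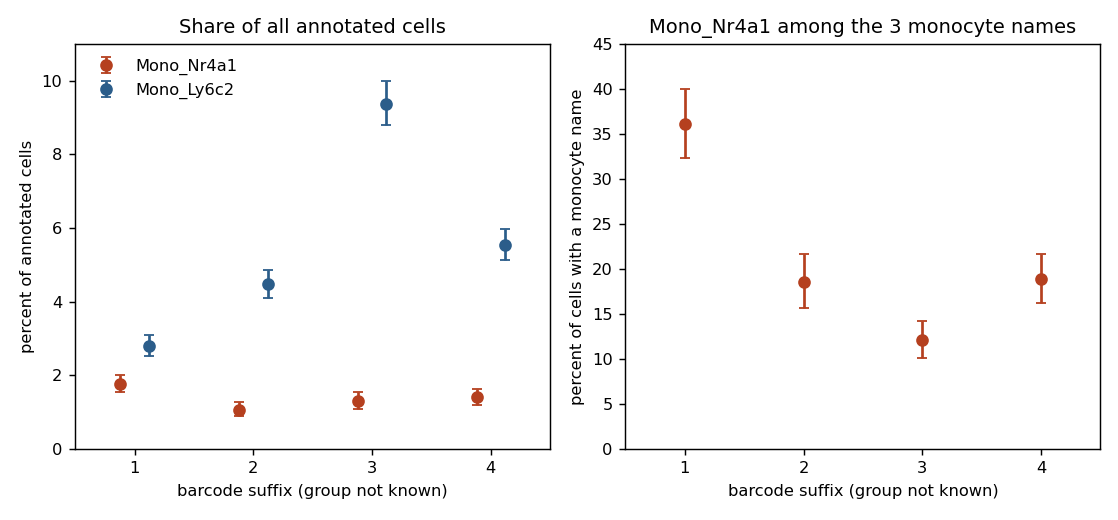
Percent of annotated cells named Mono_Nr4a1 or Mono_Ly6c2 (left) and percent of cells with a monocyte name that were Mono_Nr4a1 (right), by barcode suffix, with points for each suffix and bars for the exact 95% binomial interval. Mono_Nr4a1 lies between 1.06% and 1.76% of all cells, and among the monocyte names suffix 1 stands apart at 36.1%.

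The Mono_Nr4a1 cells with counts were deeper than the median cell. They had a median of 2170 counted UMIs and 684 genes in suffix 1 and 2157 UMIs and 653 genes in suffix 2, against a median over all cells of 1224.5 and 1712 UMIs. Their UMIs summed to 536492 in suffix 1 and 68364 in suffix 2. Only 3221 of the cells of suffix 2 had counts, and among those the share of Mono_Nr4a1 was 0.807% (0.528 to 1.18). Pairs of suffixes shared 24 to 42 barcode sequences, among them 4 of the suffix 1 Mono_Nr4a1 barcodes shared with suffix 2 and 2 shared with suffix 4. In 1 case the same sequence was Mono_Nr4a1 in both suffix 1 and suffix 4.

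A level below is the number of UMIs per 10000 counted UMIs, summed over the cells of a name within a suffix. A ratio of levels is called higher or lower when its exact conditional binomial 95% interval lies wholly beyond 2-fold and the gene has 50 or more UMIs over both sides. The name rests on a clustering of these same cells, so ratios to other cells are a description and no test is attached to them. Against all other cells of suffix 1, 129 of 3514 genes (3.67%) were higher in Mono_Nr4a1 and 246 (7%) were lower. In the smaller suffix 2, 49 of 3087 genes (1.59%) were higher and 60 (1.94%) were lower. Of the genes higher in suffix 1, 120 lay on the same side in suffix 2, as did 245 of the lower ones, and 39 and 55 were called in both.

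The choice of denominator bears on all ratios to other cells. S100a8 and S100a9 took 4.36% of the counted UMIs of Mono_Nr4a1 and 24.4% of those of the other cells of suffix 1, where neutrophils are many. With these 2 genes left out of the totals every log2 ratio moved by -0.34, and the calls became 66 higher and 351 lower, of which 66 and 244 were the same genes. The higher calls were 34.4% of all calls with the 2 genes counted and 15.8% without them.

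The 3 marker genes given for this name were all higher than in the other cells of suffix 1. Their summed level was 140 in Mono_Nr4a1 against 39.7 in the other cells of suffix 1, the highest of the 23 names, and 73.3 against 42.7 in suffix 2, where it ranked 8. All 3 are genes of classical monocytes or of myeloid cells in general.

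Chil3, which encodes the secreted chitinase-like protein Ym1, had the highest level of the 15 genes with the highest ratios. Its level was 55.1 in Mono_Nr4a1 against 3.06 in the other cells of suffix 1, and 10.4 against 0.518 in suffix 2. The log2 ratios were 4.17 (interval 4.11 to 4.23) and 4.32 (3.94 to 4.69). Mono_Nr4a1 had the highest Chil3 of the 23 names in both suffixes, although its levels in the monocyte names were several-fold lower in suffix 2. The next names in suffix 1 were Mono_Ly6c2 at 23.8 and Mono_Itgal at 19.1, and in suffix 2 these had 3.28 and 0.680. Mono_Itgal had only 5 cells with counts in suffix 2. Chil3 was seen in 87.9% of Mono_Nr4a1 cells in suffix 1 and 38.5% in suffix 2, and in 74.3% and 23.1% after each cell was thinned to 500 UMIs. B cells, which should lack it, had a Chil3 UMI in 1.68% and 1.43% of cells, at median depths of 558 and 1352 UMIs. In suffix 2 the gene rested on 71 UMIs in 10 of 26 cells, and 3 cells held 73.2% of them, whereas in suffix 1 it was spread over 203 of 231 cells.

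Chil3 lies on the minus strand of chromosome 3 at 106147554 to 106167564 (GRCm38, GENCODE M21). The bases upstream of its start are shown because Chil3 is the marker gene with the widest difference. They are the 250 bases before the RefSeq start of the gene, chr3:106167565-106167814, GRCm38, minus strand, written 5′ to 3′ with capitals at each match to GGAA, the core of ETS factor motifs such as that of PU.1, read on either strand.
Chil3: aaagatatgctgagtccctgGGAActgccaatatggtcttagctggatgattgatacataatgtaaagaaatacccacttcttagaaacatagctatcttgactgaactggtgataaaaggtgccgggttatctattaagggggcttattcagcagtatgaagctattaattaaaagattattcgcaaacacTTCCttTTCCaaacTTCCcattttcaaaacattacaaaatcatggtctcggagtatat
The window holds 4 matches, 3 of them close together near the start of the gene and on the opposite strand. Such a short motif is common, being present in 93.4% of 32851 RefSeq promoters of the same length, with a median of 3 matches. As many matches as in Chil3 or more were found in 33.4% of promoters.

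Klf4, a zinc-finger transcription factor of monocyte differentiation, had a level of 22.6 in Mono_Nr4a1 against 7.95 in the other cells of suffix 1, and 27.8 against 8.65 in suffix 2. The log2 ratios were 1.51 (1.43 to 1.59) and 1.68 (1.47 to 1.89). Klf4 did not separate the monocyte names, since Mono_Ly6c2 had 23.7 and 27.8. A Klf4 UMI was present in 84.0% and 88.5% of Mono_Nr4a1 cells and, after thinning, in 49.1% and 57.7%. The share was also sizeable in B cells, at 32.0% and 36.4% without thinning.

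Fn1, the matrix protein fibronectin and a marker of classical monocytes, had a level of 62.4 in Mono_Nr4a1 against 28.7 in the other cells of suffix 1, and 35.1 against 33.6 in suffix 2. Its log2 ratio of 1.12 (1.07 to 1.17) was called in suffix 1, and that of 0.06 (-0.12 to 0.25) in suffix 2 was not. Without S100a8 and S100a9 in the totals, the Fn1 ratio of suffix 1 was 0.78 and no longer called. Fibroblasts and both other monocyte names had higher levels than Mono_Nr4a1 in both suffixes, with 83.6 and 99.3 in Mono_Ly6c2 and 105 and 104 in fibroblasts.

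Set against marker lists, most of the classical monocyte genes that could be measured were higher than in other cells, while few non-classical genes could be measured. Of 7 measured classical genes, among them Chil3, Fn1, S100a4 and Thbs1, 6 were higher than in other cells in suffix 1 and 4 in suffix 2, with none lower. Over all genes compared, 3.67% were higher in suffix 1 and 1.59% in suffix 2. Chil3 and Fn1 are also markers given for the name, so the count is no separate evidence for them. Without S100a8 and S100a9 in the totals, 5 of the 7 were higher in suffix 1. The median log2 ratio of the 7 was 1.76 and 1.97 in suffixes 1 and 2, against 0.07 and -0.02 over all genes compared. The list did not separate Mono_Nr4a1 from Mono_Ly6c2. Against that name 1 gene was higher and 1 lower in suffix 1, and 2 were higher and 1 lower in suffix 2. The summed level was 279 in Mono_Nr4a1 against 265 in Mono_Ly6c2 in suffix 1, and 213 against 256 in suffix 2. Of the 19 non-classical genes listed 4 were measured, and none was called in suffix 1. Fcgr4, the Fc receptor typical of Ly6C-low monocytes, had a level of 2.65 against 4.21 in suffix 1 and 1.90 against 4.53 in suffix 2. The scavenger receptor gene Cd36 had 0.130 against 0.193 in suffix 1, and the lipid-binding protein gene Fabp4 had 0.112 against 0.453. Cebpb, the remaining one of the 4, was called higher in suffix 2 only, and is shared with classical monocytes and neutrophils. The summed level of the 4 genes was 248 against 130 in suffix 1, nearly all of it from Cebpb. The genes measured do not settle whether the cells are non-classical, and they are called Mono_Nr4a1 as the annotation names them. Ly6c2, Ccr2, Itgal, Cx3cr1 and Nr4a1, which would bear on it most directly, were not analysed here.

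The 15 highest ratios included 3 genes of the coagulation system and matrix, F5, Thbd and Thbs1. F5, coagulation factor V, had a level of 4.16 in Mono_Nr4a1 against 0.437 in the other cells of suffix 1, and 2.34 against 0.271 in suffix 2. The log2 ratios were 3.25 and 3.11, and Mono_Nr4a1 ranked first of the 23 names in both suffixes. F5 was seen in 52.0% and 38.5% of Mono_Nr4a1 cells, against 15.5% and 7.38% of Mono_Ly6c2 cells and 0.392% and 0.476% of B cells. Thbd, thrombomodulin, which turns thrombin towards activating protein C, had 3.34 against 0.305 in suffix 1 and 2.63 against 0.327 in suffix 2. Its ratios were 3.45 and 3.01, and Mono_Ly6c2 had similar levels of 3.66 and 2.84.

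Thbs1, thrombospondin 1, a matrix glycoprotein that restrains angiogenesis and activates latent TGF-beta, was the most abundant of this group. Its level was 30.6 in Mono_Nr4a1 against 4.09 in the other cells of suffix 1, and 29.5 against 3.84 in suffix 2, with log2 ratios of 2.90 and 2.95. Mono_Ly6c2 had more Thbs1 in suffix 1, at 57.2, and a similar level of 32.6 in suffix 2. Mono_Itgal had 39.8 and 76.8, the value of suffix 2 resting on only 5 cells. Thbs1 was uneven among Mono_Nr4a1 cells, since 62.3% and 69.2% had a UMI and 24 of the 231 cells of suffix 1 held 48.3% of the UMIs. Over the list of 12 matrix and coagulation genes, 4 were higher and 4 lower in suffix 1, and 3 were higher and 2 lower in suffix 2. The median log2 ratio of the list was -0.24 in suffix 1.

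Cd93, a lectin-like receptor involved in adhesion and the uptake of dying cells, had a level of 6.80 in Mono_Nr4a1 against 1.05 in the other cells of suffix 1, and 4.53 against 1.34 in suffix 2. The log2 ratios were 2.70 and 1.76, and Cd93 was seen in 59.7% and 50% of Mono_Nr4a1 cells against 5.55% and 14.3% of B cells. Cd93 was not called higher than in Mono_Ly6c2 in suffix 1. Cd302, a C-type lectin receptor of myeloid cells, had 12.0 against 2.25 and 7.46 against 1.70, with log2 ratios of 2.42 and 2.14.

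Several genes for signalling and sorting proteins ranked first in Mono_Nr4a1 at low levels. Plcb1, phospholipase C beta 1, which signals below G protein-coupled receptors, had a level of 2.74 against 0.185 in suffix 1 and 3.07 against 0.182 in suffix 2, with log2 ratios of 3.89 and 4.08. Sort1, the sorting receptor sortilin, had 2.39 against 0.351 and 2.34 against 0.168, with ratios of 2.77 and 3.80. Arhgef10l, an exchange factor for small GTPases, had 3.62 against 0.314 and 3.07 against 0.382, with ratios of 3.52 and 3.01. In suffix 1 these 3 genes were highest in Mono_Nr4a1 among all 23 names, and in suffix 2 Plcb1 ranked 2. They were detected in 42.4%, 35.5% and 50.2% of the cells of suffix 1 in the order just given, and Plcb1 and Arhgef10l in 0.280% of B cells each.

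The highest ratios also included genes of very low level. Rspo1, a secreted enhancer of Wnt signalling, had a level of 0.354 in Mono_Nr4a1 against 0.0127 in the other cells of suffix 1, and 3 UMIs in all in Mono_Nr4a1 of suffix 2. Fcnb, ficolin B, a lectin of marrow myeloid precursors, had 0.727 against 0.0665 in suffix 1. The other genes among the 15 highest ratios of suffix 1 were Ldlrad3, Gm13373, Gm29336, the ADP receptor gene P2ry1 and the predicted gene Gm9733. Gm9733 had 2.46 against 0.399 in suffix 1 and 2.34 against 0.248 in suffix 2.

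**Figure D2:**
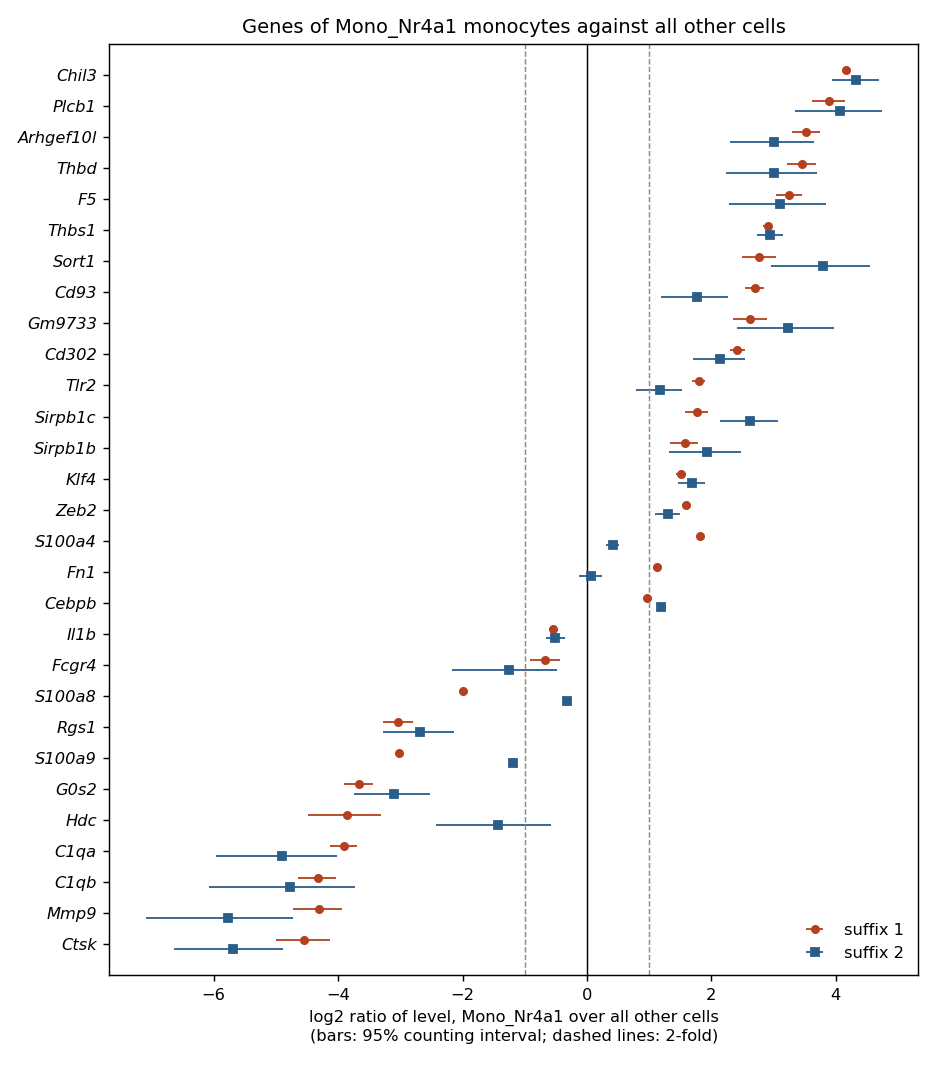
Log2 ratio of the level in Mono_Nr4a1 over all other cells for selected genes, with points for suffix 1 and suffix 2, bars for the 95% counting interval and dashed lines at 2-fold. Chil3 is at the top at 4.17 and 4.32, the coagulation and signalling genes F5, Thbd, Thbs1, Plcb1, Sort1 and Arhgef10l lie between 2.77 and 4.08, and the complement genes C1qa and C1qb and the neutrophil genes G0s2 and Hdc lie on the low side.

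The Sirpb1 genes, a cluster of near-identical signal-regulatory receptor genes on chromosome 3 that signal through an activating adaptor, had 2 members that were highest in Mono_Nr4a1. Sirpb1c had a level of 4.68 in Mono_Nr4a1 against 1.38 in the other cells of suffix 1, and 6.14 against 1.00 in suffix 2. Sirpb1b had 3.21 against 1.08 and 3.95 against 1.04. The log2 ratios were 1.76 and 2.62 for Sirpb1c and 1.57 and 1.93 for Sirpb1b, and both ranked first of the 23 names in both suffixes. Without S100a8 and S100a9 in the totals, Sirpb1b at 1.23 was no longer called in suffix 1. Sirpb1a had 1.30 against 0.630 and was not called. Against Mono_Ly6c2 in suffix 1, none of Sirpb1a, Sirpb1b and Sirpb1c was called higher.

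The bases before the start of these genes are shown because they make visible how alike the copies are. They are chr3:15575066-15575274 for Sirpb1b and chr3:15848529-15848737 for Sirpb1c, both GRCm38, minus strand, from RefSeq, with capitals at the bases that differ between them.
Sirpb1b: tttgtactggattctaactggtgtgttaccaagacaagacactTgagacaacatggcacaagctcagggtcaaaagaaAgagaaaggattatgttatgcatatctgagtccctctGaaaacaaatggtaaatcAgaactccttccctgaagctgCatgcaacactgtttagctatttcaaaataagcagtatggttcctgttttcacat
Sirpb1c: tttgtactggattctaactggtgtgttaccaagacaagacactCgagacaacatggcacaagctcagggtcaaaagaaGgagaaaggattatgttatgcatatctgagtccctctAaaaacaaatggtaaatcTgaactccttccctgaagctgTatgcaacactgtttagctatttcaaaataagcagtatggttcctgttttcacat
The pair differs at 5 of 209 aligned bases, an identity of 97.6%. In the last 500 bases of the transcripts, the stretch that a library of transcript ends would cover, 71.7% of the 31-base words of Sirpb1b and 57.8% of those of Sirpb1c were shared with another gene of the family. The rest of the words were not shared, so the values of the single copies are uncertain only in part, and how reads matching several genes were counted is not stated in these sources.

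Genes for adhesion and trafficking were split. Of 16 measured, 7 were higher and 5 lower than in other cells in suffix 1, and 4 were higher and 1 lower in suffix 2. Without S100a8 and S100a9 in the totals the count of suffix 1 turned to 3 higher and 6 lower. Against Mono_Ly6c2, none of 14 compared was higher and 2 were lower in suffix 1. In suffix 2, 1 of 11 was higher than in Mono_Ly6c2 and 1 was lower. Itga4, the alpha chain of the integrin VLA-4, had 5.24 against 2.01 and 3.95 against 1.83, and Cd44, the hyaluronan receptor, had 33.6 against 13.7 in suffix 1. Neither Itga4 nor Cd44 kept its call of suffix 1 without S100a8 and S100a9 in the totals.

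Of 13 myeloid transcription factors, 3 were higher and 1 lower in suffix 1, and 4 were higher and none lower in suffix 2. Their summed level was 391 in Mono_Nr4a1 against 200 in other cells of suffix 1, second of the 23 names. Mono_Ly6c2 had 429 in suffix 1, and 420 against 354 in Mono_Nr4a1 in suffix 2. None of the 11 factors compared between these names was called in either suffix. Zeb2, a repressor needed for monocyte identity, had 31.8 against 10.5 and 29.5 against 12.0, with log2 ratios of 1.59 and 1.30. Cebpb, which drives monocyte and granulocyte programmes, was the most abundant, with 245 against 126 in suffix 1 and 201 against 87.5 in suffix 2. Its ratio of 0.97 was not called in suffix 1 and that of 1.20 was called in suffix 2. Spi1, which encodes PU.1, had 22.0 against 12.9 and 18.0 against 11.3 and was not called, although its level in suffix 1 was the highest of all names.

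Genes of the S100 family, small calcium-binding proteins, differed in direction. S100a4 had a level of 111 in Mono_Nr4a1 against 31.4 in the other cells of suffix 1, and 116 against 87.2 in suffix 2, where it was not called. S100a10, a partner of annexin A2, had 77.1 against 24.8 and 74.6 against 39.3 and was likewise called in suffix 1 only. S100a8 and S100a9, the calprotectin subunits of neutrophils and inflammatory monocytes, are given further on. Of 10 family members, 4 were higher and 2 lower in suffix 1, and 3 of each without S100a8 and S100a9 in the totals. Against Mono_Ly6c2, none of 8 was called in suffix 1, and 2 of 8, S100a8 and S100a9, were higher in suffix 2.

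Pattern recognition and metabolism genes were fewer. Tlr2, the receptor for bacterial lipoproteins, had a level of 16.2 in Mono_Nr4a1 against 4.67 in suffix 1, the highest of the 23 names, and 9.36 against 4.15 in suffix 2. Its log2 ratio of 1.79 in suffix 1 was called and that of 1.17 in suffix 2 was not. Tlr2 was not called higher than in Mono_Ly6c2 in either suffix. Lbp, the lipopolysaccharide-binding protein, had 2.01 against 0.716 and 2.63 against 0.532. Gyg, glycogenin, which starts glycogen chains, had 11.8 against 4.00 and 11.6 against 2.80, with ratios of 1.56 and 2.04. Fam129a, a stress-regulated gene also called Niban, had 7.08 against 2.04 and 6.58 against 1.65. Without S100a8 and S100a9 in the totals, Lbp at 1.15 was no longer called in suffix 1.

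Of 20 interferon-stimulated genes, 3 were higher and 1 lower in suffix 1, and 4 were higher and none lower in suffix 2. Over all genes compared, 3.67% were higher and 7% lower in suffix 1, and 1.59% were higher and 1.94% lower in suffix 2. Samhd1, which degrades nucleotides and restricts viruses, had a level of 23.8 in Mono_Nr4a1 against 9.20 in suffix 1. Ifi207, of the Ifi200 family of DNA sensors, had 6.49 against 2.22. Isg15, a ubiquitin-like protein and a common reporter of type I interferon, was the lower one, at 1.32 against 4.29 with a log2 ratio of -1.70. Without S100a8 and S100a9 in the totals, the count was 1 higher and 2 lower, and Samhd1 was no longer called.

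Genes of mature macrophages were low in Mono_Nr4a1. Of 6 macrophage markers measured, 5 were lower and 1 higher in suffix 1, and 3 were lower and 1 higher in suffix 2. C1qa, a chain of complement C1q and a marker of resident and tumour macrophages, had a level of 3.24 in Mono_Nr4a1 against 48.7 in suffix 1 and 1.46 against 43.8 in suffix 2. Its log2 ratios were -3.91 and -4.90. Mrc1, the mannose receptor, had 0.466 against 3.11 and Mertk, which takes up apoptotic cells, had 0.0373 against 0.588, both in suffix 1. In single cells, 90 of 231 Mono_Nr4a1 cells of suffix 1 had no UMI of the 3 C1q genes and 7 had 5 or more, with 53 in the highest cell.

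Genes of osteoclast-like cells, which resorb bone and matrix, were lower too. Of 4 measured, all were lower in both suffixes, with a summed level of 1.99 against 42.4 in suffix 1. Ctsk, cathepsin K, had 0.839 in Mono_Nr4a1 against 19.7 in suffix 1 and 1.76 against 90.2 in suffix 2. Mmp9, a gelatinase, had 1.01 against 20.0 and 1.02 against 55.9.

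Markers of lymphocytes and stromal cells were at or near 0. Of 4 B cell markers all were lower in suffix 1, with a summed level of 0.0373 against 2.73, and Bank1 and Cr2 had no UMI there. All 4 had no UMI in suffix 2. Of 7 T cell markers 6 were lower in suffix 1 and 4 in suffix 2, with a summed level of 0.969 against 8.52 in suffix 1. Fibroblast markers summed to 0.205 in Mono_Nr4a1 against 13.1 in the other cells of suffix 1 and 0.293 against 18.5 in suffix 2. The gene with the lowest ratio by the naming rule was Col3a1, collagen III of fibroblasts, at 0.112 against 9.89 with a log2 ratio of -6.47. Among the other 14 were the lymphocyte genes Cd28, Gata3, Pax5, Bach2, Fcmr, Ralgps2 and Xcl1.

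The cell cycle list was also low in Mono_Nr4a1, with 10 of 14 genes lower in suffix 1, 4 lower in suffix 2, and none higher in either. Its summed level was 9.75 against 23.6 in suffix 1 and 10.5 against 30.0 in suffix 2. Pcna, the sliding clamp of DNA replication, had 4.01 against 5.91 in suffix 1 and was not called. Ube2c, the ubiquitin-conjugating enzyme of the anaphase-promoting complex, had 2.16 against 1.97 in suffix 1 and 1.76 against 2.68 in suffix 2, called in neither.

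**Figure D3:**
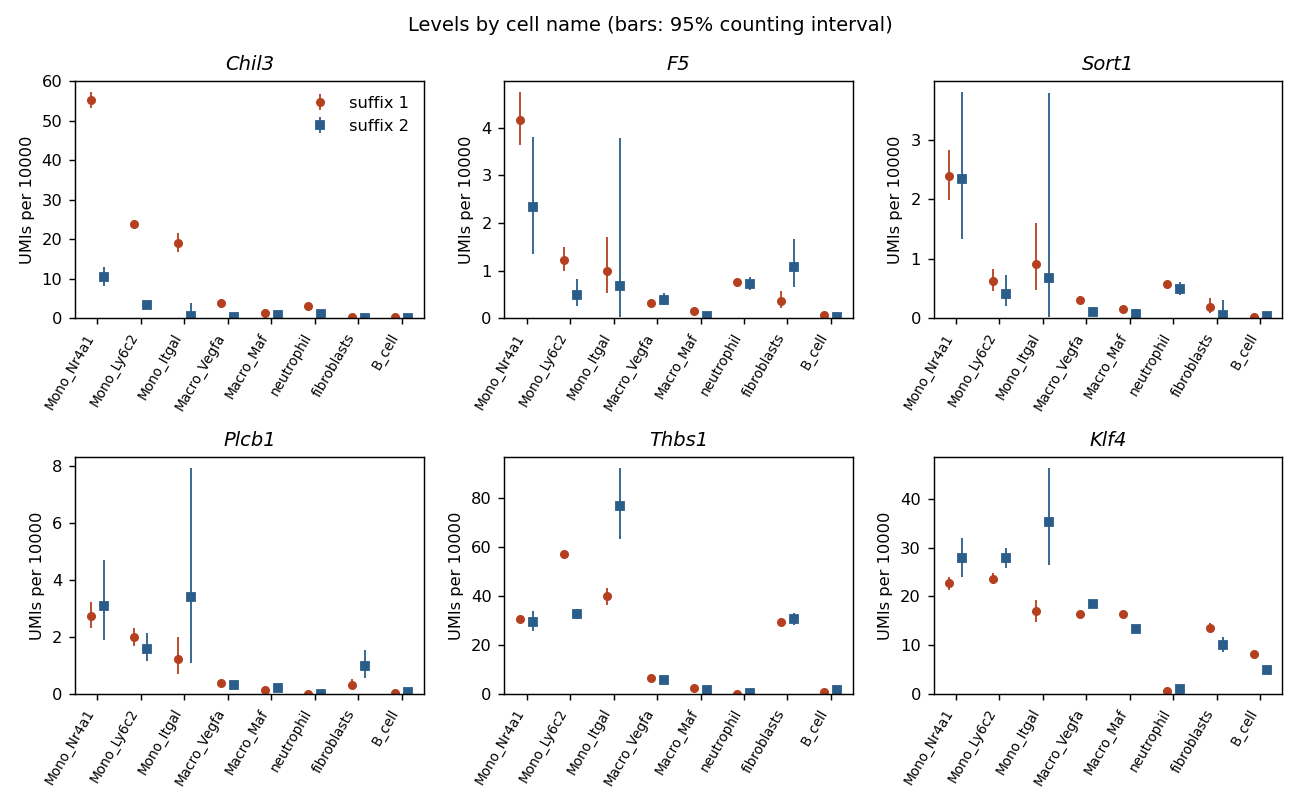
Level (UMIs per 10000 counted UMIs, linear axes starting at 0) of Chil3, F5, Sort1, Plcb1, Thbs1 and Klf4 in 8 of the 23 cell names, with points for each suffix and bars for the 95% Poisson interval. Chil3, F5 and Sort1 are highest in Mono_Nr4a1 in both suffixes, while Thbs1 and Klf4 are as high or higher in the other monocyte names.

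Mono_Ly6c2 was the name most like Mono_Nr4a1 by its whole profile. Over 3054 genes, Pearson's r of the log2 levels was 0.962 in suffix 1 and 0.917 in suffix 2, a description across genes, which are not independent. Macro_Vegfa followed at 0.938 and 0.897, and neutrophils stood at 0.843 and 0.820. Fibroblasts were least like Mono_Nr4a1 at 0.694 and 0.639.

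Compared directly with Mono_Ly6c2, few genes were higher in Mono_Nr4a1 and more were lower. In suffix 1, 15 of 1765 genes (0.85%) were higher and 69 (3.91%) were lower. In suffix 2, 7 of 904 genes (0.774%) were higher and 32 (3.54%) were lower. Of the suffix 1 calls, 14 of the higher and 66 of the lower genes lay on the same side in suffix 2. In suffix 1 the 2 names had nearly the same share of counted UMIs in S100a8 and S100a9, 4.36% and 4.52%. Leaving these genes out of the totals gave 15 higher and 70 lower.

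The 1 gene called higher than in Mono_Ly6c2 in both suffixes was Chil3. Its level was 55.1 in Mono_Nr4a1 against 23.8 in Mono_Ly6c2 in suffix 1, and 10.4 against 3.28 in suffix 2, with log2 ratios of 1.21 and 1.66. F5 had 4.16 against 1.23 in suffix 1 and 2.34 against 0.479 in suffix 2, and Sort1 had 2.39 against 0.628 and 2.34 against 0.405. The log2 ratios in suffix 1 were 1.76 for F5 and 1.93 for Sort1, and suffix 2 had too few UMIs for a call. Lbp had 2.01 against 0.576, Fam129a had 7.08 against 2.21, and Cd302 had 12.0 against 4.92, all called in suffix 1. These calls for Chil3, F5 and Sort1 held in mean UMIs per cell and without the cells of high S100a8 and S100a9 described below.

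Some genes of dividing cells were higher in Mono_Nr4a1 than in Mono_Ly6c2. Ube2c had a level of 2.16 in Mono_Nr4a1 against 0.183 in Mono_Ly6c2 in suffix 1 and 1.76 against 0.184 in suffix 2, the highest ratio of this comparison at 3.56 (2.76 to 4.48) in suffix 1. It was seen in 31.6% and 38.5% of Mono_Nr4a1 cells, against 3.53% and 2.69% of Mono_Ly6c2 cells and 7.28% and 22.6% of B cells. Knstrn, a spindle protein, had 1.04 against 0.105 in suffix 1, and Stmn1, stathmin, which destabilises microtubules, had 1.73 against 0.471. Of the 4 genes of the cell cycle list with enough UMIs in suffix 1, Ube2c and Stmn1 were higher and none was lower, and the summed level of the list was 9.75 against 5.82. The other 2 also had ratios above 1 that were not called, with Cks1b, a subunit of cyclin-dependent kinases, at 1.04 against 0.576 and Pcna at 4.01 against 3.87. Several names had more Ube2c than Mono_Nr4a1, which ranked 6 and 8 in suffixes 1 and 2.

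Inflammatory genes were among the lower ones. Il1a, interleukin-1 alpha, had a level of 1.21 in Mono_Nr4a1 against 17.2 in Mono_Ly6c2 in suffix 1 and 1.32 against 22.2 in suffix 2, with log2 ratios of -3.83 and -4.08. Il1b, interleukin-1 beta, stayed abundant but lower, at 53.6 against 154 and 51.3 against 189, with ratios of -1.53 and -1.88. Il1rn, the receptor antagonist, had 2.05 against 10.8 and 5.27 against 21.1. Of the 6 interleukin-1 family genes and receptors compared in suffix 1, 4 were lower and none higher, and 3 of 4 were lower in suffix 2.

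Ptgs2, the inducible cyclooxygenase that makes prostaglandins, had a level of 5.29 in Mono_Nr4a1 against 41.0 in Mono_Ly6c2 in suffix 1 and 12.3 against 55.8 in suffix 2, with log2 ratios of -2.95 and -2.18. Il6, interleukin-6, had 0.373 against 2.80 and 0.293 against 3.43. Of 12 inflammatory mediators and receptors compared, 5 were lower and none higher in suffix 1, and 4 of 9 were lower in suffix 2. Among single Mono_Nr4a1 cells these transcripts were concentrated, with 90.8% of Il1a, 83.1% of Ptgs2 and 56.0% of Il1b UMIs of suffix 1 in the 24 cells that had most of each. Il1a had only 65 UMIs in 30 of the 231 cells, so its share was largely set by that low count. For Ptgs2, 1 cell held 68 of 284 UMIs.

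Of 9 matrix and coagulation genes compared with Mono_Ly6c2, 3 were lower and 1 was higher in suffix 1, and 2 of 6 were lower in suffix 2. Pdpn, podoplanin, a ligand of the platelet receptor CLEC-2, had a level of 0.186 in Mono_Nr4a1 against 3.22 in Mono_Ly6c2 in suffix 1 and 0.439 against 6.30 in suffix 2. Its log2 ratios were -4.11 and -3.84. Outside that list, Sdc4, the heparan sulphate proteoglycan syndecan-4, had 1.42 against 15.3 and 2.93 against 22.6, and Tgm2, transglutaminase 2, had 3.73 against 20.5 and 5.12 against 25.4. Ackr3, which clears the chemokine CXCL12, had 0.224 against 3.28 and 0.585 against 4.05. Csf1, the growth factor of macrophages, had 0.168 against 2.41 in suffix 1. Slc2a1, the glucose transporter GLUT1, had 5.00 against 18.7 in suffix 1 and was called, and had 7.02 against 14.6 in suffix 2 and was not.

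Some Fc receptors were lower than in Mono_Ly6c2, with 3 of 5 lower in suffix 1, 1 of 5 in suffix 2 and none higher. Fcgr2b, the inhibitory receptor, had a level of 7.16 in Mono_Nr4a1 against 25.0 in Mono_Ly6c2 in suffix 1 and 6.29 against 29.4 in suffix 2. Fcgr1, the high-affinity receptor, had 3.13 against 11.6 in suffix 1, where it was called, and a log2 ratio of -0.71 in suffix 2, where it was not. Fcgr4 had 2.65 against 7.26 in suffix 1, with a log2 ratio of -1.46. Of 19 interferon-stimulated genes, 3 were lower in suffix 1 and 1 in suffix 2, and none was higher. Isg15 had 1.32 against 7.04 in suffix 1 and 3.66 against 7.11 in suffix 2, and was called in suffix 1 only. Macrophage markers were lower in 4 of 5 cases in both suffixes, with C1qa at 3.24 against 7.85 in suffix 1 and 1.46 against 7.22 in suffix 2. The C1qa call of suffix 1 was lost in mean UMIs per cell, at a log2 ratio of -1.11.

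**Figure D4:**
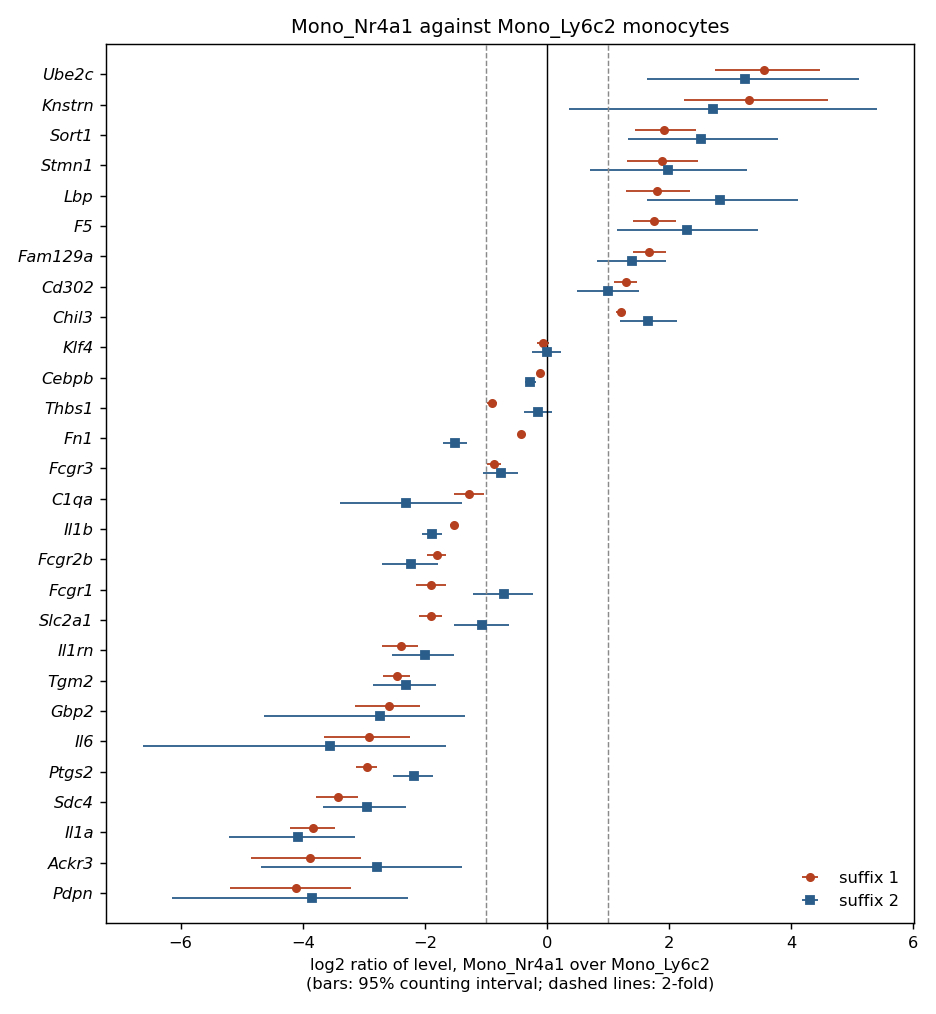
Log2 ratio of the level in Mono_Nr4a1 over Mono_Ly6c2 for selected genes, with points for suffix 1 and suffix 2, bars for the 95% counting interval and dashed lines at 2-fold. Ube2c is at the top at 3.56 in suffix 1, Klf4 and Cebpb lie near 0, and Il1a, Ackr3 and Pdpn lie lowest, between -3.83 and -4.11 in suffix 1.

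Set against the macrophage name Macro_Vegfa, 54 of 2489 genes (2.17%) were higher in Mono_Nr4a1 of suffix 1 and 161 (6.47%) were lower. Macro_Vegfa cells were deeper, with a median of 3457 UMIs against 2170, and in mean UMIs per cell the calls were 19 higher and 401 lower. Chil3 had a level of 55.1 in Mono_Nr4a1 against 3.83 in Macro_Vegfa, a log2 ratio of 3.85, and F5 had 4.16 against 0.321. Thbs1 had 30.6 against 6.74. The largest differences on the lower side were Slamf9 at 0.0559 against 3.47, Tnfrsf9 (the costimulatory receptor 4-1BB) at 0.205 against 7.97 and the C1q genes, with C1qa at 3.24 against 98.9. Il1a and Ptgs2 were lower here too, at 1.21 against 18.0 and 5.29 against 31.6.

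Set against neutrophils, Mono_Nr4a1 had 1174 of 2306 genes (50.9%) higher and 67 (2.91%) lower in suffix 1. The median log2 ratio over all these genes was 1.51. S100a8 and S100a9 took 58.5% of the counted UMIs of neutrophils, which cover only the genes analysed here. Without those genes in the totals the ratios moved by -1.20 and the calls were 470 higher and 220 lower. The share of calls on the higher side was 94.6% with the 2 genes counted and 68.1% without them. Far above that shift were Plcb1 at 2.74 in Mono_Nr4a1 against 0.0120 in neutrophils, Thbs1 at 30.6 against 0.140 and Fn1 at 62.4 against 0.937. Hdc, the histamine-forming enzyme, had 0.485 against 15.6, and G0s2, an inhibitor of triglyceride breakdown, had a log2 ratio of -4.88.

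Transcripts of neutrophils were nonetheless present in Mono_Nr4a1. Of 9 neutrophil markers, 8 were lower than in other cells in suffix 1 and 2 in suffix 2, none was at 0, and their summed level was 470 against 2577 in suffix 1 and 787 against 1308 in suffix 2. S100a8 had a level of 267 in Mono_Nr4a1 against 1058 in the other cells of suffix 1, and 478 against 597 in suffix 2, where it was not called. S100a9 had 169 against 1381 and 282 against 639, and was called lower in both. In suffix 2 these levels rested on very few cells, with 85.6% of S100a8 and 96.4% of S100a9 UMIs in 3 of 26 cells. The part of free RNA and of mixed droplets in these levels was not tested. The ratio of S100a8 to S100a9 UMIs was 1.58 (1.54 to 1.62) in Mono_Nr4a1 of suffix 1, the highest of the 23 names, against 0.770 in neutrophils. In suffix 2 it was 1.70, against 0.933 in neutrophils and 2.10 in Mono_Ly6c2.

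The Mono_Nr4a1 cells of suffix 1 ranged widely in these 2 genes, from 6.35 to 5145 UMIs per 10000 per cell with a median of 88.2. In 26 of the 231 cells the 2 genes took more than 1000 per 10000, and these cells held 58.6% of all S100a8 and S100a9 UMIs of the name. The 26 cells had a median of 2796 UMIs, against 2080 in the other 205. Their S100a8 to S100a9 ratio was 1.38 (1.33 to 1.42), against 1.93 (1.85 to 2.01) in the other 205. Cells of suffix 2 had a median of 32.4, and 2 of them lay above 1000.

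The cells of high S100a8 and S100a9 differed in other genes too, which were chosen after their values were seen and are given as a description. G0s2 had a level of 9.98 in the 26 cells against 1.85 in the other 205, and Lcn2, the granule protein lipocalin-2, had 59.9 against 15.8. Klf4 had 7.88 in the 26 cells against 25.1 in the other 205, and Atf3, a stress-induced transcription factor, had 9.59 against 40.7. The choice of cells by S100a8 and S100a9 itself lowers the levels of all other genes in the 26. Without these 2 genes in the totals, Klf4 had 9.61 against 25.6 and Atf3 had 11.7 against 41.6. Without the 26 cells, the comparison with all other cells of suffix 1 gave 133 genes higher and 220 lower, and Klf4 had a log2 ratio of 1.66. In the comparison with Mono_Ly6c2, leaving them out made 6 of 9 neutrophil markers lower in place of 3, among them S100a9 with a log2 ratio of -1.70. The cells left out were picked by S100a8 and S100a9, and no Mono_Ly6c2 cells were left out. A fall in these genes was therefore set by the choice of cells, and no conclusion is drawn from it. In suffix 2, with all cells, 3 of 6 neutrophil markers (S100a8, S100a9 and Lcn2) were instead higher than in Mono_Ly6c2 and none was lower. The summed level of the list was 787 against 128. These values rested on very few of the 26 cells. The 3 cells with the most UMIs of each gene held 85.6%, 96.4% and 83.5% of them, in the order just given. Whether the cells of high S100a8 and S100a9 are mixed droplets was not tested.

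**Figure D5:**
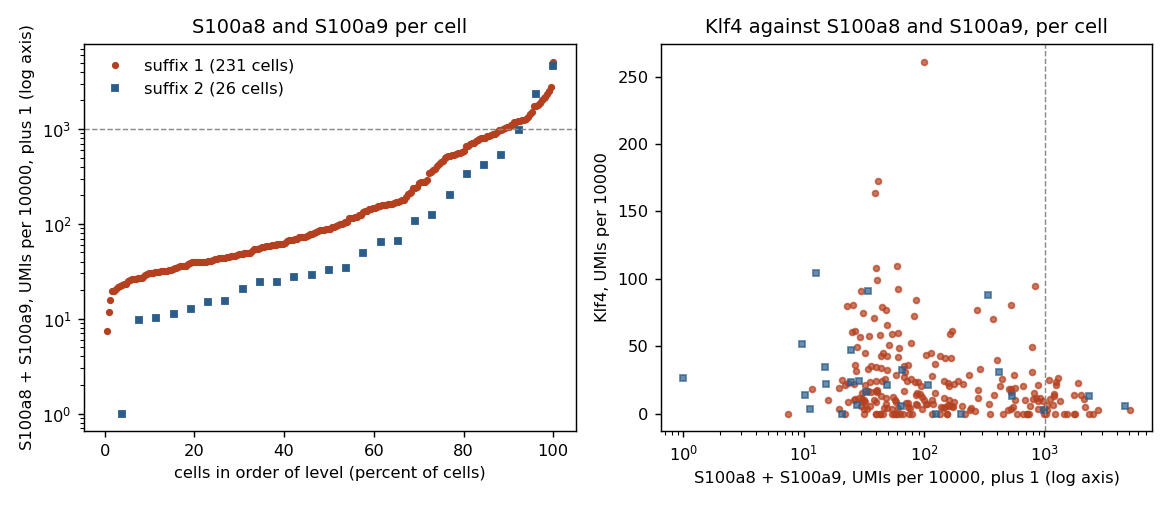
Summed level of S100a8 and S100a9 in each Mono_Nr4a1 cell in rising order (left) and level of Klf4 against it (right), with points for cells of suffix 1 and suffix 2, log axes for S100a8 and S100a9, and a dashed line at 1000 UMIs per 10000. Of the 231 cells of suffix 1, 26 lie above the line, and their Klf4 level was 7.88 against 25.1 in the other 205. Without S100a8 and S100a9 in the totals, these Klf4 levels were 9.61 and 25.6.

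Genes of the early response to stimulation also varied from cell to cell. Of 11 measured, 1 was lower than in other cells in suffix 1, and 1 was higher and 1 lower in suffix 2, with a summed level of 208 against 173 in suffix 1 and 248 against 166 in suffix 2. In suffix 1, the 24 cells with the most UMIs held 51.0% of those of Atf3 and 43.8% of those of Jun, a subunit of AP-1, against 20.6% for Cebpb and 21.6% for B2m. Over 230 cells thinned to 500 UMIs, Pearson's r was 0.58 between Atf3 and Jun and 0.64 between Atf3 and the antiproliferative gene Btg2, as a description of cells that share 1 library. The S100a8 and S100a9 pair had 0.74, and Jun and S100a11 had -0.39. Of 2278 pairs among 68 genes, 26 lay beyond 0.3 in either direction. Whether dissociation of the tissue contributed to the early response genes was not tested.

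The calls of the remaining lists against other cells stand beside 3.67% higher and 7% lower over all genes compared in suffix 1. Of 14 inflammatory genes 1 was higher and 2 lower in suffix 1, and of 10 interleukin-1 family genes 6 were lower. In suffix 2, 1 of the 10 interleukin-1 family genes was lower, against 1.94% of all genes. No call was made among 5 glycolysis and hypoxia genes or 16 ribosomal protein genes in either suffix, with a median log2 ratio of the ribosomal genes of 0.38 in suffix 1 and 0.06 in suffix 2. Of 8 oxidase genes 1 was higher in suffix 1. Of 7 genes of lipid handling 2 were lower, among them Fabp5, a fatty acid-binding protein, at 1.49 in Mono_Nr4a1 against 8.70 in suffix 1. Of 10 lysosomal genes 1 was lower, and of 8 survival genes 2 were lower. Of 3 genes of alternative activation, Chil3 was higher and Mrc1 was lower. Of 6 Fc receptors 1 was lower in suffix 1.

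Markers of the other cell types that a CD45 sort could hold were few. Of 3 natural killer cell markers, Xcl1 was lower and Cd244a, a receptor of the SLAM family that monocytes also carry, was higher at 1.57 in Mono_Nr4a1 against 0.586 in suffix 1, a call lost without S100a8 and S100a9 in the totals. Of 2 granule genes of neutrophil precursors, Fcnb was higher and Padi4, which citrullinates histones in neutrophils, was lower. No call was made among 3 dendritic cell markers, 3 endothelial markers and 1 marker of mast cells and basophils in suffix 1, and 1 of 4 epithelial markers was lower.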

How the data were processed

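Droplet libraries (10x Genomics) were made from sorted CD45-positive, propidium iodide-negative tumour cells, per the labels' protocols. The values deposited are whole-number UMI counts for each gene in each cell. The submitters' processing notes name Cell Ranger, Seurat and the build GRCm38 (mm10), with no versions, and filters and the method of naming cells are not stated there. Of its rows, 4099 were complete and 1 incomplete row was left out. All 16383 count columns carry a suffix tied to no sample, so the planned tests between groups were replaced by descriptions per suffix. A cell's counted UMIs are not its full depth. By symbol, 4067 rows matched GENCODE M21 and 32 did not.

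UMIs were summed per name and suffix and scaled to 10000, with exact Poisson, conditional binomial and Clopper-Pearson 95% intervals covering counting error only. Ratios needed 50 UMIs. Thinning drew 500 UMIs per cell. The naming rule took the 15 highest and 15 lowest called ratios against all other cells and 10 and 10 against single names, with the same side in suffix 2, besides members of 32 lists with 227 measured genes. Members and lists were chosen with earlier results of these data known. Some results are not reported here. The procedure was tested on simulated data. Doublets were not called here, and no label mentions their removal. Alternatives are described in the closing section. Software was Biopython 1.88, matplotlib 3.10.9, pandas 2.3.3, scipy 1.17.1, numpy 2.4.6 and Python 3.11.15.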

Additional observations from a re-analysis of the deposited data

How the results depend on the processing

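The log2 ratios of Chil3, Klf4 and Fn1 over all other cells kept their sign under the alternatives run for them. Counts and shares have no sign that could change. The median log2 ratio over all genes compared with other cells of suffix 1 went from 0.07 to -0.27 with S100a8 and S100a9 left out of the totals. With S100a8 and S100a9 left out of the totals, the genes above 2-fold over all other cells were 66, the log2 ratios were 3.83 for Chil3, 1.17 for Klf4 and 0.78 for Fn1, and the calls against neutrophils were 470 higher and 220 lower. With each cell weighted equally and no interval, 355 genes were higher and 1048 lower, and the ratios were 4.80, 1.74 and 1.83 in the same order. In suffix 2 the counts were 49 and 60 against all other cells, 7 and 32 against Mono_Ly6c2, 374 and 23 against neutrophils and 26 and 55 against Macro_Vegfa, with ratios of 4.32, 1.68 and 0.065. Further settings were added after seeing the data. In mean UMIs per cell the calls against Macro_Vegfa were 19 and 401, and without the 26 cells of high S100a8 and S100a9 the ratio of Klf4 was 1.66. Shares without neutrophils were 3.10%, 1.46% and 1.75% in suffixes 1 to 3, and the share among cells with counts in suffix 2 was 0.807%. The other 34 values of the counts, ratios and shares stayed within 1.5 times or within their interval, among them those with no minimum of UMIs (135 higher and 246 lower) and without the cells rich in C1q (128 and 245). Thinning to 500 UMIs moved 16 of 18 shares of cells with a UMI.

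No paired analysis was possible because no label or header ties a barcode suffix to a sample. For the same reason the edgeR and DESeq2 comparisons of Mif-depleted with wild-type samples, the fit with a replicate block and the fits leaving out a replicate were not run. Suffix 2 had 26 cells and 68364 UMIs, which limits calls there, and low genes could be missed at that depth. The cause of the differences between settings was not tested beyond the shift in the denominator.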
